A study of Mus musculus with 9 samples.

Results

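The carboxylesterase and conjugation enzyme genes are the genes that encode carboxylesterases (Ces), the UDP-glucuronosyltransferases of families 1 and 2 (Ugt1, Ugt2), glutathione S-transferases of the classes alpha, kappa, mu, omega, pi and theta (Gst), sulfotransferases (Sult) and aldehyde dehydrogenases (Aldh). They were chosen by gene name, without pseudogenes and without a cutoff on any measured value, but with earlier results of these data known. The rule found 81 of the 32137 genes in the files: 13 Ces, 18 Ugt (9 Ugt1 and 9 Ugt2), 20 Gst, 9 Sult and 21 Aldh genes.

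RNA sequencing of 9 cell samples, each sorted out of mouse bile duct organoids after differentiation, gave their levels. Such organoids are cultures of biliary epithelial cells grown and then pushed towards a hepatocyte-like state. All organoids derived from 1 male mouse of mixed genetic background with the genotype Axin2CreERT2+/-; R26-LSL-tdTom+/-, so that 4-hydroxytamoxifen (4-OHT) switched on the fluorescent protein tdTomato in cells that expressed the Wnt target gene Axin2 while it was present. After 2 to 4 days of expansion and 11 days of differentiation, every culture, untreated ones included, had received 3 uM dexamethasone and 500 nM 4-OHT in its last 24 h. The groups of 3 libraries each were tdTomato-negative cells of cultures without Rspo1 (untreated), and tdTomato-negative (Rspo1-negative) and tdTomato-positive cells (Rspo1-positive) of cultures given 100 ng/ml Rspo1, a secreted protein that strengthens Wnt signalling, in the same 24 h. Each group was sampled once at organoid passages 5, 6 and 10. Since a single animal gave all cells, the p-values below measure the spread between repeated cultures and not between animals. There was no group of tdTomato-positive cells without Rspo1. Total counts ranged from 23423979 to 37351448 per library.

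These enzymes detoxify drugs, hormones, bile constituents and reactive products of lipid oxidation. Carboxylesterases split ester and amide bonds, and aldehyde dehydrogenases oxidise aldehydes, including retinaldehyde, to acids. Glutathione S-transferases, glucuronosyltransferases and sulfotransferases then attach glutathione, glucuronic acid or sulfate, which makes the product soluble for export into bile or urine. Most are strongly expressed in hepatocytes and more sparsely in bile duct and intestinal epithelium. Many Gst genes respond to the transcription factor NRF2 through antioxidant response elements.

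The promoter sequences of 5 members are printed because they give examples of both directions of change described below, and were chosen with their motif matches known: Gsta3, Gstm5 and Gstm7 had higher levels in Rspo1-negative than in untreated cells, and Ces2a and Sult1c2 had lower ones. Each window runs from 250 bases before to 50 bases after an annotated start (RefSeq, build GRCm38.p6), written 5′ to 3′ along the gene. Capitals mark the core of the antioxidant response element, TGACNNNGC on either strand. The windows are chr1:21240335-21240634 (plus strand), chr3:107895604-107895903 (plus strand), chr3:107931565-107931864 (minus strand, 1 of 2 annotated starts), chr8:104733753-104734052 (plus strand) and chr17:53845909-53846208 (minus strand).
Gsta3: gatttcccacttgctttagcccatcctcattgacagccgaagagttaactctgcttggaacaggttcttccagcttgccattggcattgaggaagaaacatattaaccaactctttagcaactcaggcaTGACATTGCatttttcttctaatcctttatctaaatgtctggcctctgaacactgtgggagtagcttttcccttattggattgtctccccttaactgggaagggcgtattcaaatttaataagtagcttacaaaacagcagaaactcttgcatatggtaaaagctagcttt
Gstm5: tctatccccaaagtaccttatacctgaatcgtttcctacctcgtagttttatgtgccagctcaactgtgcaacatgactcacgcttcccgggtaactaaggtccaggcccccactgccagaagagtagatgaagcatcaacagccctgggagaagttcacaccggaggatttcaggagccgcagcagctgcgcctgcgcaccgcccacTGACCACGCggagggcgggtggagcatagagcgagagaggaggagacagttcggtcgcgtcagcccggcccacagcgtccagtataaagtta
Gstm7: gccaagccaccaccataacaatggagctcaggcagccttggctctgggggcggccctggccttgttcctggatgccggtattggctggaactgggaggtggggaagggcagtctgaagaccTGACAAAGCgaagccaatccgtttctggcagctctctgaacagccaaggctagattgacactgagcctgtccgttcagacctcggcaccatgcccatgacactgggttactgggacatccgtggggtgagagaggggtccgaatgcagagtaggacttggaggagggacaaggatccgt
Ces2a: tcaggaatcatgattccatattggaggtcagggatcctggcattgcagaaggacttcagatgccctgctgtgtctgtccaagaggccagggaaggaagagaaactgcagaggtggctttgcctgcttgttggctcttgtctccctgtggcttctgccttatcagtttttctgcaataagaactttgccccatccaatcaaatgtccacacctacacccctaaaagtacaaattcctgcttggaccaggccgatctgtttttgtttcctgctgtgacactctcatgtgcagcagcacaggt
Sult1c2: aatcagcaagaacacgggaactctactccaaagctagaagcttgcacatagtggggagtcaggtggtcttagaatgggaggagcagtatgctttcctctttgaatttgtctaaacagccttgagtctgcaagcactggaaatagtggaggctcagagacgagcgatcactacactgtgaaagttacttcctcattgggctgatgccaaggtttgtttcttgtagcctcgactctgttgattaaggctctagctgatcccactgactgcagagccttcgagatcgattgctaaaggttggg
The core lay 121, 42 and 129 bases before the start of Gsta3, Gstm5 and Gstm7 and was not among the letters of the Ces2a and Sult1c2 windows. It was also not in the windows of Gstm2, Gstm4 and Gstk1, the other Gst genes that rose in Rspo1-negative cells, nor at the other start of Gstm7, so the printed windows do not stand for all genes that rose. RefSeq promoter windows were matched for 67 members (78 windows), and 5 windows, those of Aldh1a2, Aldh9a1, Gsta3, Gstm5 and Gstm7, held the core, which is 6.41% against 12.4% of all 32851 windows of this length. The core bound by the aryl hydrocarbon receptor, GCGTG on either strand, was in 21 of 78 windows (26.9%, against 32.4% of all). The TCF/LEF core of Wnt-responsive sites, ATCAAAG on either strand, was in 1 window of 78, that of Aldh16a1 (1.28%, against 3.73% of all). In Gstm5, 5 bases of the antioxidant core are also a match to the receptor core on the other strand. A match in these windows is a description of letters and not a binding site.

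The levels spanned several orders of magnitude, and 14 members had a mean of at least 100 FPKM (the authors' unit, reads scaled to exon length and library depth), 8 of them Ugt1 genes. Among glutathione S-transferases, Gsta4, which prefers 4-hydroxynonenal and related lipid aldehydes, averaged 1295 FPKM over the 9 libraries, and Gsto1, an omega-class enzyme with thioltransferase activity, averaged 1115. The next in the family were Gsta3 (242 FPKM), Gstp1 (126) and Gstm1 (111). The highest sulfotransferase was Sult1a1, the phenol sulfotransferase, at 110.2 FPKM, the highest aldehyde dehydrogenase was the mitochondrial Aldh2 at 93.8, and the highest carboxylesterase was Ces2g at 61.8. Within the carboxylesterases Ces2g stood alone: the next, Ces2a, averaged 6.28 FPKM and the remaining 11 at most 1.51.

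**Figure D1:**
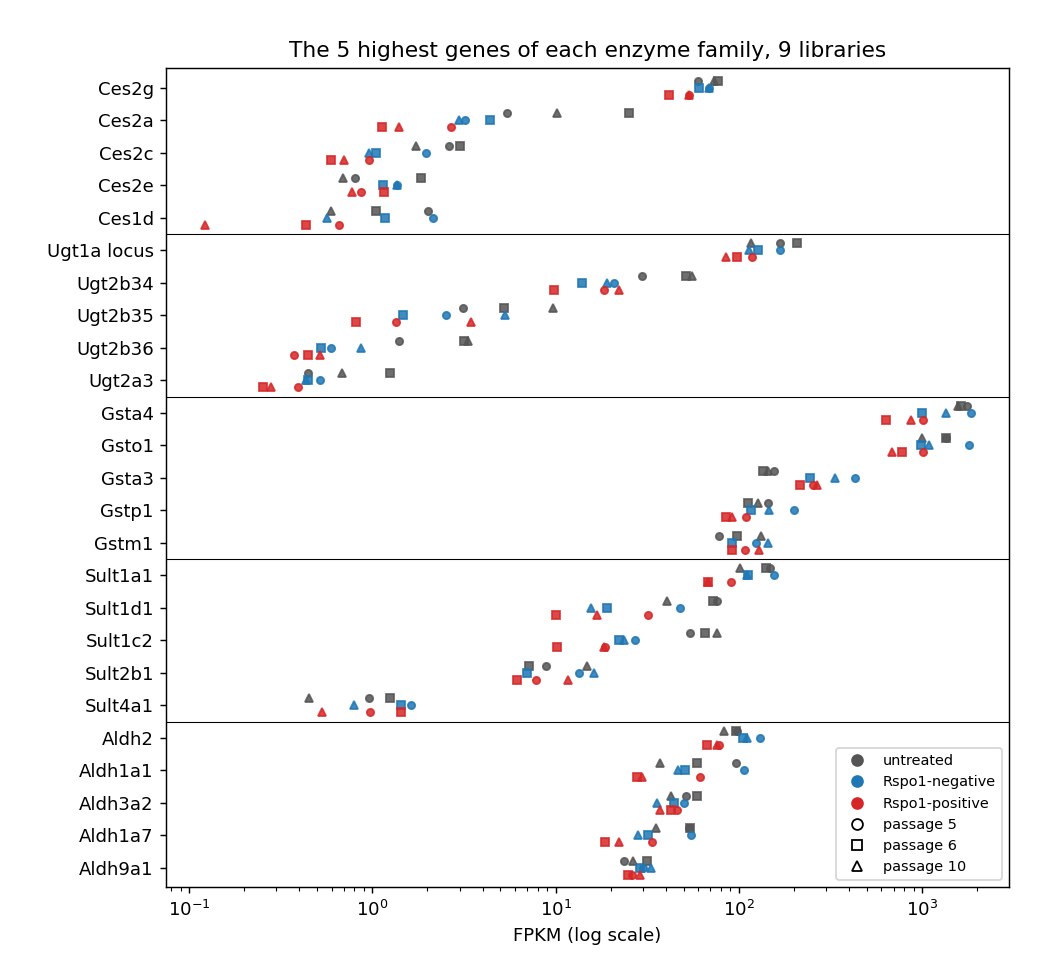
FPKM (log axis) of the 5 highest genes of each family in each of the 9 libraries, coloured by group and with a marker shape for each passage; the 9 Ugt1a genes are shown once. Gsta4 and Gsto1 were the top genes in every library, and Ces2g alone among the carboxylesterases exceeded 30 FPKM.

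At the low end, 16 members did not pass the filter on low counts and were not tested. They were Ces1e, Ces1f, Ces1g, Ces2h, Ces3a, Ces5a, Ugt2a1, Ugt2a2, Ugt2b1, Ugt2b5, Ugt2b38, Gsta2, Gstm6, Sult1c1, Aldh3b3 and Aldh8a1. Their highest count in any library was 64 and their highest mean 16.2, both of Ugt2b5. Ces1f, Ces1g and Ces3a are abundant liver carboxylesterases, and they averaged 0.0649, 0.00855 and 0.0245 FPKM here. Ugt2b5, although untested, was listed at 0.147, 1.13 and 0.715 FPKM in the untreated, 0.0888, 0.0663 and 0.159 in the Rspo1-negative and 0.0525, 0.0362 and 0.0584 in the Rspo1-positive libraries of passages 5, 6 and 10, the order used for every such series of values below.

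The members lie in gene clusters. All 13 Ces genes are on chromosome 8, all 9 Ugt1 genes between 88055388 and 88220002 on chromosome 1, all 9 Ugt2 genes between 86889767 and 87490871 on chromosome 5, and all 7 Gstm genes between 107895821 and 108044894 on chromosome 3 (GRCm38, GENCODE M21). Clustered paralogs can share reads: 28 members shared more than 10% of their 75-base stretches with other genes. The share was 84.7% for Gsta1, mostly with the gene model Gm3776, 29.2% for Gstp1 with Gstp2, and 22.1% for Ces2c, mostly with Ces2d-ps, so the values of these genes are uncertain between copies. Exons of Aldh4a1 (32.5%), Aldh6a1 (18.6%), Aldh1l2 (14.1%), Gstm5 (13.9%), Gstt3 (13.6%) and Aldh1l1 (13.4%) overlap those of other gene models, from which their reads may not have been separated.

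The 9 Ugt1a genes are alternative first exons spliced to common exons, and the counts showed that reads in the common exons had been counted for every gene. Ugt1a9 and Ugt1a10 had identical counts in all 9 libraries, and Ugt1a2, Ugt1a5 and Ugt1a8 exceeded them by at most 4 reads and Ugt1a6b by at most 25. More reads above that common level were counted for Ugt1a7c, with 32.0% of its reads, for Ugt1a6a (11.6%) and for Ugt1a1 (0.918%), the bilirubin-conjugating form. The Ugt1a genes were therefore treated as 1 measurement, represented by Ugt1a1, which left 73 measurements, 57 of them tested. The reads above the common level amounted to 50.3 ± 10.6 CPM (counts relative to library depth; SD, n = 3) for Ugt1a6a in untreated, 35.1 ± 3.46 in Rspo1-negative and 31.0 ± 4.49 in Rspo1-positive cells. For Ugt1a7c they were 177 ± 63.5, 136 ± 38.5 and 103 ± 19.4 CPM. These values were not tested, and reads from the common exons cannot be assigned to a first exon. The exons of Ugt1a6a and Ugt1a7c cover 4312 and 4219 bases, those of the other Ugt1a genes 2190 to 2382. The model of Ugt1a7c also ends further downstream (88220002, against 88218997 for Ugt1a6a). Reads above the common level therefore need not come from first exons.

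**Figure D2:**
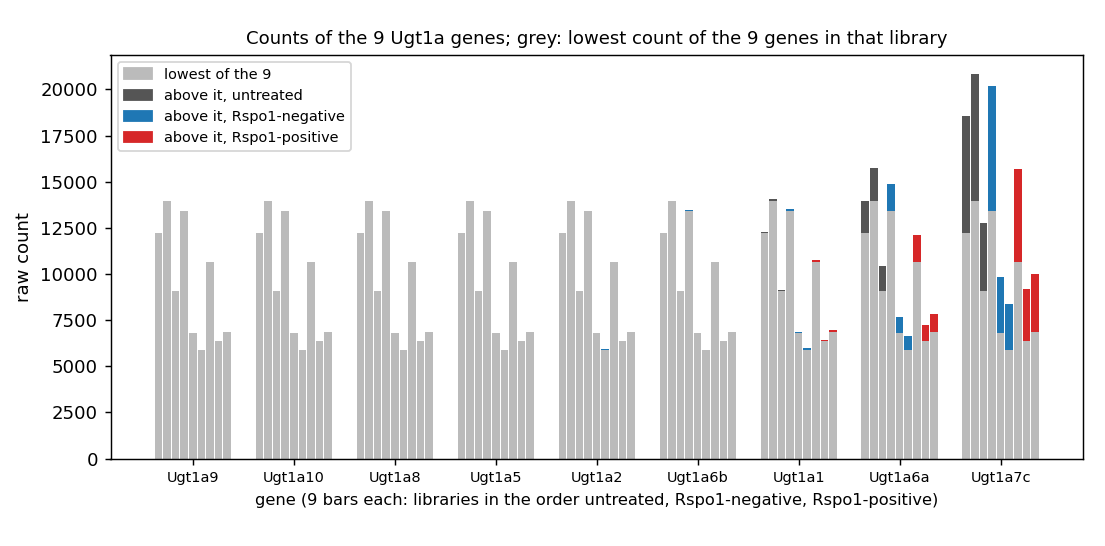
Raw counts of the 9 Ugt1a genes, with 9 bars per gene (libraries grouped as untreated, Rspo1-negative and Rspo1-positive, passages 5, 6 and 10 within each); grey is the lowest count of the 9 genes in that library and colour the reads above it. Only Ugt1a7c and Ugt1a6a rise visibly above the grey level.

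Changes between groups were tested with edgeR's quasi-likelihood test on counts with passage as a block and Benjamini-Hochberg adjustment over 17011 genes, and a gene is said to have risen or fallen where the adjusted p was under 0.05. In Rspo1-positive against untreated cells, members of all 5 families fell and few rose. Of the 57 tested measurements 25 passed the test, 23 of them lower and 2 higher, whereas 13.2% of all genes passed it, 6.77% lower and 6.44% higher. The median log2 fold change was -0.41 over the 57 measurements (-0.51 over all 65 tested genes) and 0.00 over all genes. All 25 moved in the same direction in 3 of 3 passages. A test with passage as a block favours such genes, so this is no separate support for the calls. Without the passage block 9 of the 25 passed, namely Ces2a, Ces2c, Gsta1, Gsta4, Sult1a1, Sult1b1, Sult1c2, Ugt2b34 and Ugt2b36, and the count fell to 15 without the Rspo1-positive library of passage 6. Whichever 1 library of the compared groups was left out, 14 of the 25 passed: Ces1d, Ces2a, Ces2c, Ugt2b34, Ugt2b35, Ugt2b36, Gsta1, Gsta4, Sult1a1, Sult1c2, Sult1d1, Aldh1a7, Aldh3b1 and Aldh5a1. Libraries of the remaining group were not left out in such fits, here and below. In bulk RNA a lower level in the same cells cannot be told apart from fewer cells that express the gene.

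In Rspo1-negative against untreated cells 19 measurements passed, 11 lower and 8 higher, which is 33.3% against 35.5% of all genes (20.0% lower, 15.5% higher). The median was 0.03, against -0.01 over all genes. Glutathione S-transferases made up 6 of the 8 that rose, and Ces, Ugt2 and Sult genes made up 9 of the 11 that fell. With an offset for each gene's GC content and length 12 passed, 11 of them among the 19. The rises of Gstm4, Gstm7, Gstk1 and Aldh16a1 and the falls of Ugt2b34, Ugt2b35, Sult1d1 and Sult1b1 did not pass with it. GC content and length were not offset separately. Without the passage block 8 passed. Leaving out the Rspo1-negative library of passage 5 or that of passage 10 left 12. Whichever library of the compared groups was left out, 10 passed: Ces2a, Ugt2b34, Ugt2b35, Ugt2b36, Gsta1, Gsta3, Gstm2, Gstm5, Sult1c2 and Sult1d1.

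Between the 2 gates of the Rspo1-treated cultures, 26 measurements passed, 25 lower and 1 higher in Rspo1-positive cells, against 38.9% of all genes (17.4% lower, 21.5% higher). The median was -0.53, against 0.03 over all genes. With the GC and length offset 23 passed, 15 of them among the 26, and among all genes 1639 of the 4007 that passed were higher, instead of 3660 of 6624. The calls lost with it were those of Gstk1, Gstm2, Gsto1, Gstp1, Gstt3, Sult2b1, Aldh1b1, Aldh3b2, Aldh4a1, Aldh5a1 and Aldh16a1. Without the block 12 passed. Single libraries weighed on the count, which was 11 and 15 without the Rspo1-negative libraries of passages 5 and 10, and 15 and 17 without the Rspo1-positive libraries of passages 6 and 10. Ces1d, Gsta1, Gstm4, Gstp1, Gstt1, Sult1a1, Aldh1a1, Aldh1l1, Aldh2 and Aldh3b1, 10 in all, passed whichever library of the compared groups was left out. The 3 comparisons share libraries, so their values are given side by side and are not independent.

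**Figure D3:**
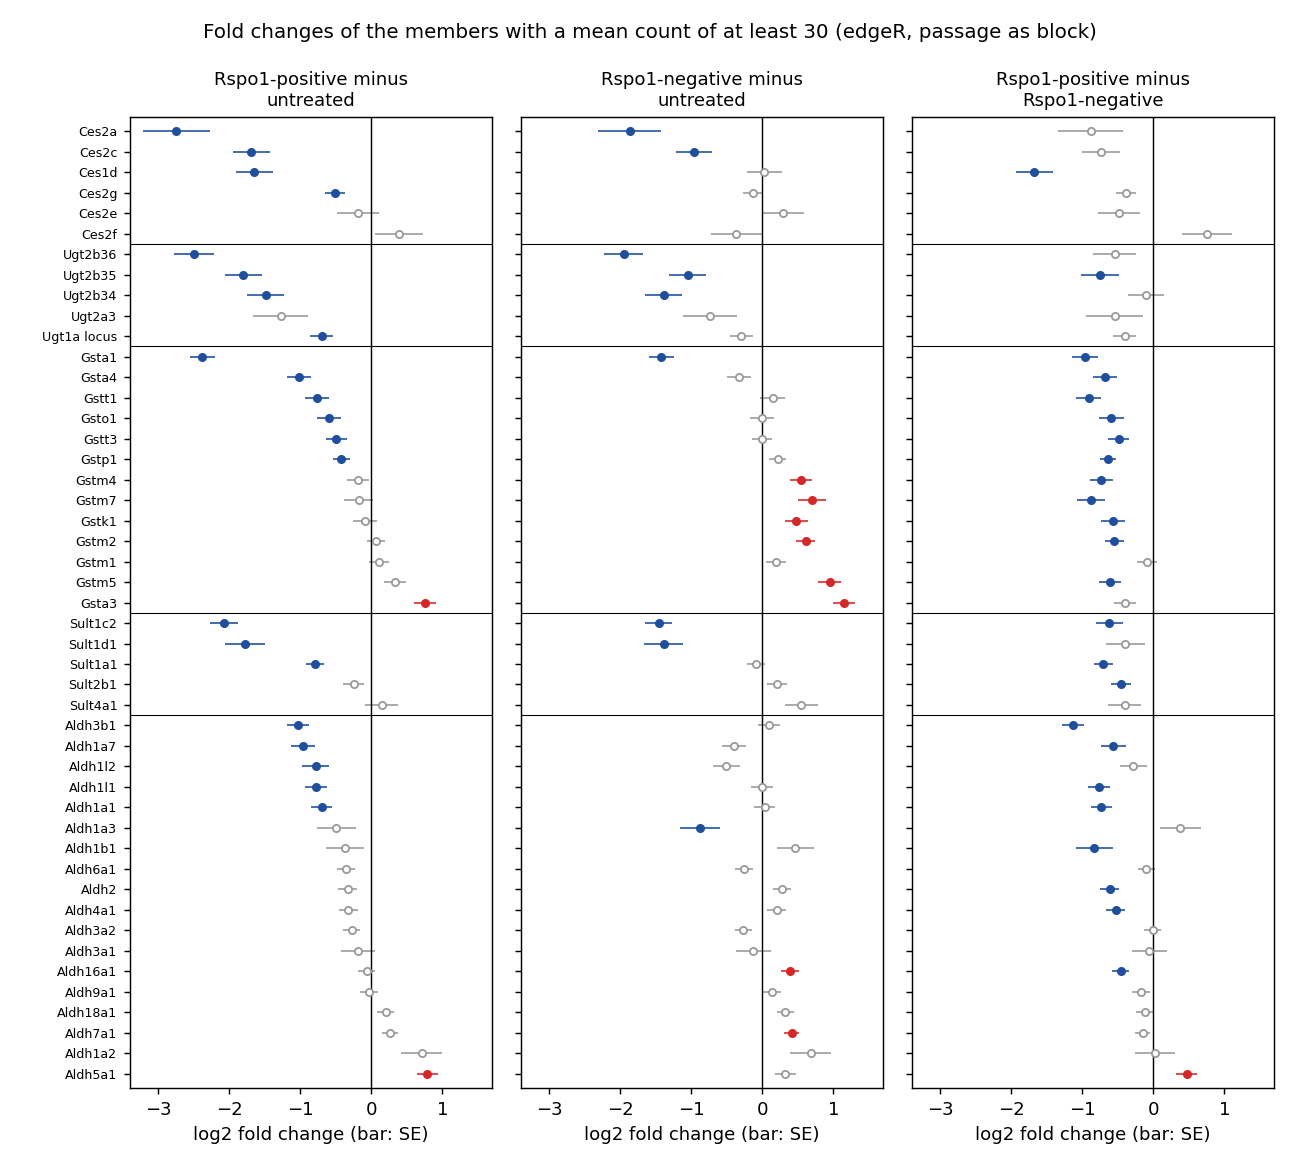
Log2 fold changes with SE of the tested members with a mean count of at least 30, by family, in the 3 comparisons; filled points passed the test, blue lower and red higher, and the Ugt1a genes are shown once. In the first panel 22 filled points lie left of 0 and 2 right of it; in the second, the filled points right of 0 are Gst and Aldh genes.

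Cell composition and cell cycle markers moved alongside these groups. The 5 cholangiocyte markers Krt19, Krt7, Epcam, Sox9 and Spp1 were all present, with a summed level of 3084 to 3768 FPKM in untreated, 3178.5 to 4084 in Rspo1-negative and 2682 to 2773 in Rspo1-positive libraries. They went both ways: Sox9 (log2 1.34) and Spp1 (0.73) rose and Krt19 (-1.06) fell in Rspo1-positive against untreated cells, Sox9 (1.07) rose in Rspo1-negative cells, and Krt19 (-0.76) and Krt7 (-0.64) fell between the gates. Of 8 hepatocyte markers, 4 were under 1 FPKM in untreated and 6 in both Rspo1 groups. The sums, 132 to 360, 221 to 471 and 164 to 259 FPKM, were mostly Ttr. Of the 5 tested, 1 fell and none rose in Rspo1-positive against untreated cells (median log2 -1.07). In Rspo1-negative against untreated cells 1 fell and none rose (-0.70), and between the gates 2 fell and 1 rose (-0.65). The shares that passed were 20%, 20% and 60%, against 13.2%, 35.5% and 38.9% of all genes. The 6 proliferation genes Mki67, Top2a, Ccnb1, Cdk1, Mcm2 and Mcm5 summed to 17.0 to 33.0, 57.4 to 78.7 and 112 to 137 FPKM, with no overlap between groups, and all 6 rose in Rspo1-positive against untreated cells. Mesenchymal and endothelial markers summed to at most 0.161 and 0.0828 FPKM. Immune markers, nearly all Cd68, summed to 6.58 to 17.8, 6.09 to 19.5 and 4.26 to 9.25 FPKM. Cd68 fell in Rspo1-positive against untreated (log2 -0.71) and against Rspo1-negative cells (-0.61), and did not pass in Rspo1-negative against untreated cells (-0.10). The part of these markers in the changes of the enzyme genes was not tested.

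Of the 7 tested carboxylesterases, 4 fell in Rspo1-positive against untreated cells and none rose (57.1% passed, against 13.2% of all genes). In Rspo1-negative against untreated cells 3 fell and none rose (42.9%, against 35.5%). Between the gates 1 fell and none rose (14.3%, against 38.9%). Ces2a, an esterase of the intestinal and hepatic Ces2 group (chr8:104734003-104741634), was listed at 5.47, 25 and 10.2 FPKM in the untreated, 3.23, 4.38 and 2.96 in the Rspo1-negative and 2.70, 1.13 and 1.40 in the Rspo1-positive libraries. The untreated library of passage 6 was by far the highest, and neither Rspo1 group overlapped the untreated one. The fall was 6.73-fold in Rspo1-positive cells (log2 fold change -2.75, SE 0.47, adjusted p = 0.00269) and 3.66-fold in Rspo1-negative cells (log2 fold change -1.87, SE 0.44, adjusted p = 0.00812), and the difference between the gates did not pass (log2 -0.88, adjusted p = 0.149).

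Ces2c, its neighbour on chromosome 8, stood at 2.62, 3.00 and 1.72 FPKM in untreated, 1.95, 1.04 and 0.962 in Rspo1-negative and 0.966, 0.598 and 0.703 in Rspo1-positive libraries. Only the Rspo1-positive values lay wholly below the untreated ones (log2 fold change -1.69, SE 0.26, adjusted p = 0.00142). In Rspo1-negative cells the change was -0.96 (adjusted p = 0.0145), a call that was lost without the Rspo1-negative library of passage 6 (0.0702) or that of passage 10. Ces2b, with a mean count of only 14.3, fell in Rspo1-negative cells too (-1.60, adjusted p = 0.0151; up to 0.0923 without the Rspo1-negative library of passage 5).

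Ces1d, a triacylglycerol hydrolase, differed by gate. Its levels were 2.02, 1.05 and 0.593 FPKM in untreated, 2.15, 1.17 and 0.567 in Rspo1-negative and 0.657, 0.437 and 0.122 in Rspo1-positive libraries. Levels declined from passage 5 to 10 in each group, so the groups overlapped, but the Rspo1-positive library was the lowest at every passage. Ces1d fell in Rspo1-positive cells against untreated (log2 fold change -1.65, SE 0.26, adjusted p = 0.00166) and against Rspo1-negative cells (log2 fold change -1.68, SE 0.27, adjusted p = 0.00101), while Rspo1-negative against untreated gave 0.03 (adjusted p = 0.944). Without the block neither call held (adjusted p = 0.225 and 0.0871).

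The abundant Ces2g changed little: 60.1, 77 and 73.4 FPKM in untreated, 68.4, 60.8 and 68.6 in Rspo1-negative and 53.2, 41.6 and 53.6 in Rspo1-positive libraries. The Rspo1-positive values lay below all untreated ones (log2 fold change -0.51, SE 0.14, adjusted p = 0.0381), but the call was lost in 5 of 6 fits that left out 1 library, with an adjusted p of up to 0.266 without the Rspo1-positive library of passage 6. Ces2e, at 1.11 ± 0.630, 1.29 ± 0.127 and 0.934 ± 0.201 FPKM (SD, n = 3), passed in no comparison.

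Aldehyde dehydrogenases were the family with the smallest share of changes against untreated cells. Of 19 tested, 5 fell and 1 rose in Rspo1-positive cells (31.6% passed, against 13.2% of all genes). In Rspo1-negative cells 1 fell and 2 rose (15.8%, against 35.5%). Between the gates 9 fell and 1 rose (52.6%, against 38.9%). Aldh3b1, which oxidises fatty aldehydes at membranes (chr19:3913491-3929808), was listed at 10.7, 11.8 and 16.3 FPKM in untreated, 12.8, 9.66 and 22 in Rspo1-negative and 5.63, 4.56 and 9.51 in Rspo1-positive libraries. All 3 Rspo1-positive values lay below every value of both other groups. It fell against untreated (log2 fold change -1.03, SE 0.16, adjusted p = 0.00117) and against Rspo1-negative cells (log2 fold change -1.13, SE 0.16, adjusted p = 0.000518); without the block the first of these gave an adjusted p of 0.162.

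The neighbouring Aldh1a1 and Aldh1a7 on chromosome 19 also fell. Aldh1a1, a cytosolic retinaldehyde dehydrogenase, stood at 96.8, 59.4 and 37.2 FPKM in untreated, 106, 51.1 and 46.5 in Rspo1-negative and 61.4, 27.9 and 29.6 in Rspo1-positive libraries. The passage 5 library was the highest in each group, so that the groups overlapped, and at each passage the Rspo1-positive library was the lowest (log2 fold change -0.70, SE 0.15, adjusted p = 0.00879 against untreated; log2 fold change -0.73, SE 0.15, adjusted p = 0.00323 against Rspo1-negative). Without the block the adjusted p was 0.442 and 0.224, and without the Rspo1-positive library of passage 6 the first was 0.089. Aldh1a7, its close paralog, had 53.2, 54.5 and 35.3, 54.9, 31.9 and 28.2 and 33.6, 18.7 and 22.3 FPKM, with the Rspo1-positive values below all untreated ones (log2 fold change -0.96, SE 0.18, adjusted p = 0.00394).

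The folate enzymes Aldh1l1 and Aldh1l2, cytosolic and mitochondrial 10-formyltetrahydrofolate dehydrogenases, fell by 0.78 and 0.79 on the log2 scale in Rspo1-positive against untreated cells (adjusted p = 0.00657 and 0.0184). Aldh1l1 was listed at 24.2, 32.8 and 32.6 FPKM in untreated, 28.9, 27.9 and 34.6 in Rspo1-negative and 16.7, 13.5 and 22.8 in Rspo1-positive libraries, the last below all others. Both calls were lost without the Rspo1-positive library of passage 6 (Aldh1l1 0.0557), and that of Aldh1l2 in 4 of 6 such fits, with an adjusted p of up to 0.15 without the untreated library of passage 5.

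Aldh5a1, the succinate semialdehyde dehydrogenase of GABA breakdown, was the aldehyde dehydrogenase that rose in Rspo1-positive cells. It was listed at 1.54, 2.51 and 3.63 FPKM in untreated, 2.20, 3.18 and 4.27 in Rspo1-negative and 3.47, 3.86 and 5.48 in Rspo1-positive libraries. The groups overlapped because levels climbed with passage, yet at each passage the order was untreated, Rspo1-negative, Rspo1-positive (log2 fold change 0.79, SE 0.15, adjusted p = 0.00432, positive against untreated; log2 0.47, adjusted p = 0.0259, positive against negative). Of its exon sequence 17.7% overlaps an antisense gene model, and the strand setting of the counting is not given in the sources used here. Without the block the adjusted p was 0.289, and the GC and length offset ended the call between the gates (0.543).

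The most abundant aldehyde dehydrogenase, Aldh2, which clears acetaldehyde, separated the gates: 131, 105 and 111 FPKM in Rspo1-negative against 77.5, 67 and 75.9 in Rspo1-positive libraries, without overlap (log2 fold change -0.61, SE 0.13, adjusted p = 0.00466), with 97.3, 96.8 and 83.3 in untreated libraries between them. Neither Rspo1 group differed from untreated past the threshold (adjusted p = 0.122 and 0.131). Also lower in Rspo1-positive than Rspo1-negative cells were Aldh1b1 (-0.83), Aldh1l1 (-0.77), Aldh1a7 (-0.56), Aldh4a1 (-0.53) and Aldh16a1 (-0.46), and, with a mean count of only 11.7, Aldh3b2 (-1.62). The calls of Aldh1b1, Aldh3b2, Aldh4a1 and Aldh16a1 were lost with the GC and length offset. In Rspo1-negative against untreated cells Aldh7a1 (0.41) and Aldh16a1 (0.39) rose and Aldh1a3, a retinaldehyde dehydrogenase at under 1 FPKM, fell (-0.87). Each of these 3 calls was lost in 4 of 6 fits without 1 library, those without an untreated or Rspo1-negative library of passage 5 or 10 (adjusted p of up to 0.0806 without the untreated library of passage 5 for Aldh7a1, and of up to 0.16 and 0.21 without the Rspo1-negative library of passage 5 for Aldh16a1 and Aldh1a3). Aldh3a2 and Aldh9a1, at 45.5 and 28.2 FPKM, passed in no comparison.

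Among glutathione S-transferases the direction differed by comparison. In Rspo1-positive against untreated cells 6 of 18 fell and 1 rose (38.9% passed, against 13.2% of all genes), in Rspo1-negative against untreated cells 6 rose and 1 fell (38.9%, against 35.5%), and between the gates 11 fell and none rose (61.1%, against 38.9%). The mu class accounted for 4 of the 6 that rose in Rspo1-negative cells (4 of 6 tested Gstm genes), and no Gstm gene passed in Rspo1-positive against untreated cells.

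Within the alpha class the 3 tested genes went different ways. The highly expressed Gsta4 was listed at 1766, 1627 and 1562 FPKM in untreated, 1836, 1002 and 1346 in Rspo1-negative and 1007, 636 and 871 in Rspo1-positive libraries. All Rspo1-positive values lay below all untreated ones, and the Rspo1-negative values spread across both. Gsta4 fell in Rspo1-positive against untreated (log2 fold change -1.01, SE 0.17, adjusted p = 0.00228) and against Rspo1-negative cells (log2 fold change -0.69, SE 0.17, adjusted p = 0.00887), while Rspo1-negative against untreated gave -0.33 (adjusted p = 0.153). The call between the gates was lost without the Rspo1-negative library of passage 5 (0.069) or the Rspo1-positive library of passage 6.

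Gsta1, whose values may include reads of near-identical copies, was listed at 30.3, 11.4 and 17 FPKM in untreated, 14.7, 3.99 and 5.44 in Rspo1-negative and 6.47, 1.77 and 3.51 in Rspo1-positive libraries. It was highest at passage 5 in each group, and at every passage it descended from untreated to Rspo1-negative to Rspo1-positive. It fell in each comparison: log2 fold change -2.38, SE 0.18, adjusted p = 1.07e-05 for Rspo1-positive against untreated, log2 fold change -1.42, SE 0.17, adjusted p = 0.000284 for Rspo1-negative against untreated, and log2 fold change -0.96, SE 0.18, adjusted p = 0.00249 between the gates. Without the block the last 2 did not pass (adjusted p = 0.111 and 0.224).

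Gsta3, which conjugates aflatoxin epoxide in rodents, rose instead (chr1:21240589-21265661). It was listed at 155, 136 and 143 FPKM in untreated, 431, 244 and 336 in Rspo1-negative and 253, 216 and 266 in Rspo1-positive libraries. Every library of both Rspo1 groups exceeded every untreated library. The rise was 2.22-fold in Rspo1-negative cells (log2 fold change 1.15, SE 0.16, adjusted p = 0.000413) and 1.69-fold in Rspo1-positive cells (log2 fold change 0.75, SE 0.15, adjusted p = 0.00778), and the gates did not differ past the threshold (log2 -0.40, adjusted p = 0.0604). Gsta3 has a low GC content (40.4%, against a median of 49.9% over the tested genes), and under the GC and length offset its log2 fold change in Rspo1-negative cells was 1.66. Its call in Rspo1-positive cells was lost in 3 of 6 fits without 1 library (adjusted p of up to 0.0605, without the untreated library of passage 5; also without the Rspo1-positive libraries of passages 6 and 10).

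In the mu class, whose enzymes conjugate epoxides and quinones, Gstm5 had the largest log2 fold change when Rspo1-negative were compared with untreated cells. It was listed at 21.2, 25.8 and 16.6 FPKM in untreated, 46.5, 38 and 40.3 in Rspo1-negative and 25.5, 26.3 and 28 in Rspo1-positive libraries. The Rspo1-negative libraries were the 3 highest of the 9, and those of Rspo1-positive and untreated cells overlapped (log2 fold change 0.95, SE 0.16, adjusted p = 0.00124, negative against untreated; log2 fold change -0.61, SE 0.16, adjusted p = 0.0106, positive against negative). The second of these was lost without the Rspo1-negative library of passage 5 (0.0736) or the Rspo1-positive libraries of passage 5 or 6. Gstm7 (log2 0.70), Gstm2 (0.61) and Gstm4 (0.55) followed the same course, with falls between the gates of 0.88, 0.55 and 0.73 on the log2 scale. With the GC and length offset the rises of Gstm4 and Gstm7 did not pass (adjusted p = 0.238 and 0.132), nor did the fall of Gstm2 (0.0718). Gstm1, the most abundant of the class, passed in no comparison, at 102 ± 26.9 FPKM in untreated, 120.0 ± 26.7 in Rspo1-negative and 109.7 ± 18.1 in Rspo1-positive cells (SD, n = 3).

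Among the remaining classes 4 genes fell in Rspo1-positive against untreated cells and none rose. Gsto1 was listed at 1342, 1354 and 1000.5 FPKM in untreated, 1792, 982 and 1092 in Rspo1-negative and 1015, 779 and 681 in Rspo1-positive libraries, and the groups overlapped. Its log2 fold change was -0.60 against untreated (adjusted p = 0.0423) and -0.59 against Rspo1-negative cells (adjusted p = 0.0198). The first call was lost whichever library of the compared groups was left out (up to 0.18 without the Rspo1-positive library of passage 6). For Gstp1, the pi-class enzyme often used as a marker of biliary and preneoplastic cells, the changes were -0.42 (adjusted p = 0.0345) and -0.64 (adjusted p = 0.0021). The first Gstp1 call was also lost whichever library of the compared groups was left out. The theta-class genes Gstt1 and Gstt3, which act on halogenated alkanes, changed by -0.77 and -0.49 against untreated and by -0.91 and -0.49 against Rspo1-negative cells, and the mitochondrial and peroxisomal Gstk1 by -0.57 against Rspo1-negative cells, all past the threshold. Gstk1 was also the sixth Gst gene that rose in Rspo1-negative against untreated cells (0.48, adjusted p = 0.0403, and 0.196 with the GC and length offset). With that offset the differences of Gsto1, Gstp1, Gstt3 and Gstk1 between the gates did not pass (adjusted p = 0.136, 0.0521, 0.179 and 0.0743).

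**Figure D4:**
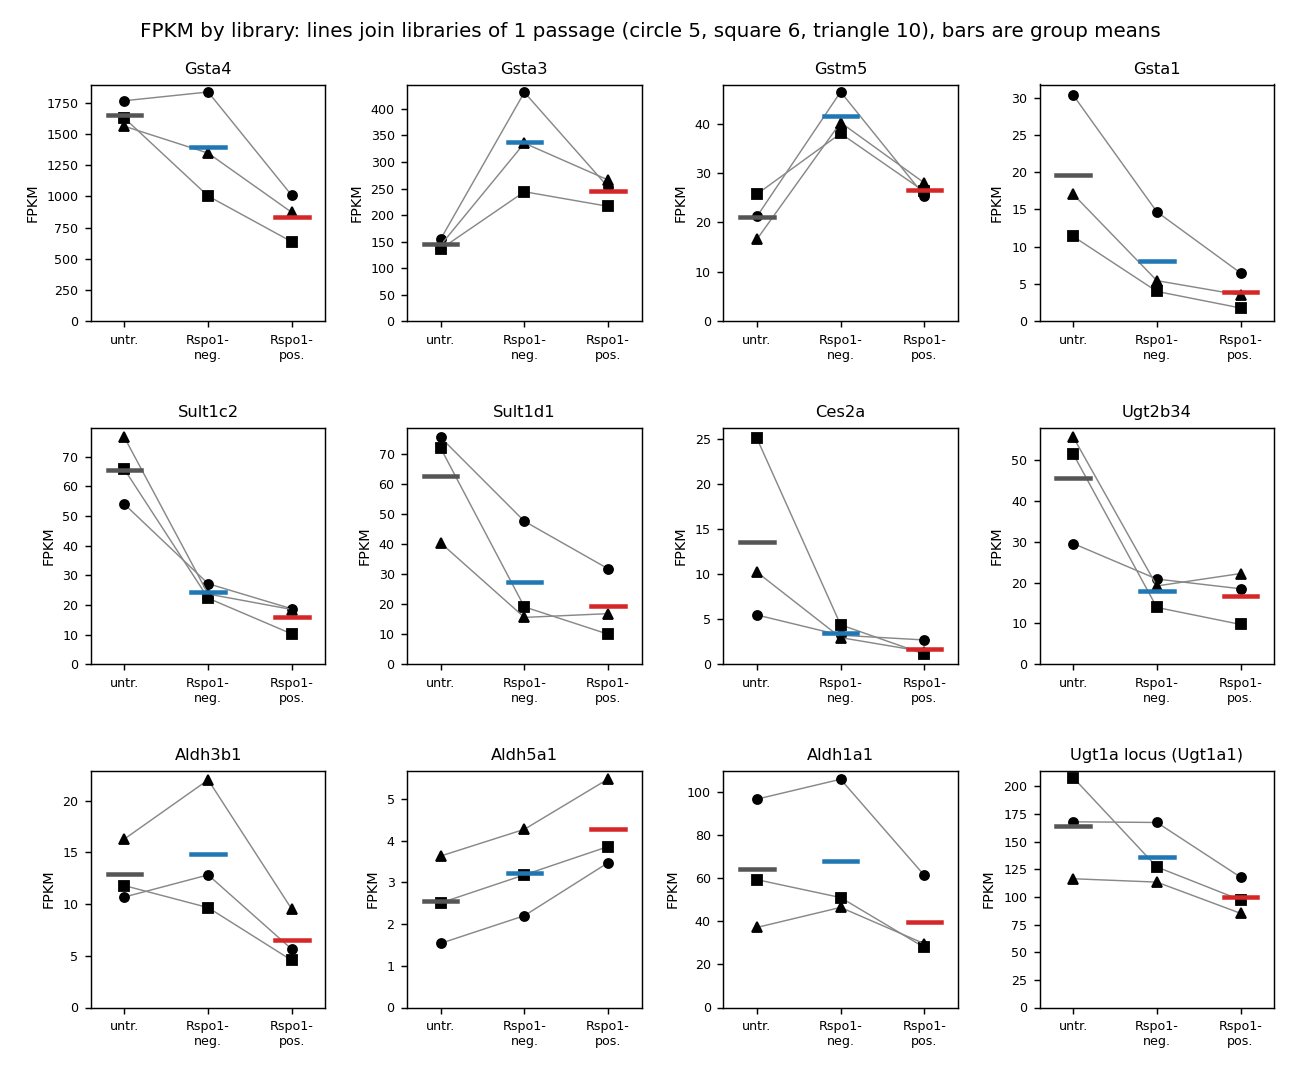
FPKM of 12 members in the 3 groups, with lines joining the libraries of the same passage (circle 5, square 6, triangle 10) and bars for the group means. Gsta3 and Gstm5 are highest in Rspo1-negative cells, Aldh5a1 climbs from left to right at each passage, and Gsta1, Sult1c2 and Ces2a descend from the untreated level.

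Among glucuronosyltransferases, 3 of the 4 tested Ugt2 genes fell in Rspo1-positive against untreated cells (75% passed, against 13.2% of all genes). The same 3 fell in Rspo1-negative against untreated cells (75%, against 35.5%), and 1 fell between the gates (25%, against 38.9%). No Ugt2 gene rose in these comparisons. The shares of all genes that were lower were 6.77%, 20.0% and 17.4%. The calls of Ugt2b34 and Ugt2b35 in Rspo1-negative cells were lost with the GC and length offset. Ugt2b34, the most abundant, was listed at 29.5, 51.4 and 55.6 FPKM in untreated, 20.9, 13.9 and 19.2 in Rspo1-negative and 18.5, 9.76 and 22.2 in Rspo1-positive libraries. Every untreated library exceeded every Rspo1 library, the untreated library of passage 5 by the smallest margin. The change was -1.49 in Rspo1-positive (SE 0.27, adjusted p = 0.00337) and -1.39 in Rspo1-negative cells (SE 0.26, adjusted p = 0.00262), with -0.10 between the gates (adjusted p = 0.784).

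Ugt2b36 stood at 1.40, 3.18 and 3.31 FPKM in untreated, 0.597, 0.522 and 0.870 in Rspo1-negative and 0.375, 0.446 and 0.518 in Rspo1-positive libraries, again without overlap with untreated (log2 fold change -2.50, SE 0.28, adjusted p = 0.000144 in Rspo1-positive; log2 fold change -1.95, SE 0.28, adjusted p = 0.000531 in Rspo1-negative cells). Ugt2b35 was listed at 3.15, 5.22 and 9.67, 2.54, 1.48 and 5.31 and 1.35, 0.812 and 3.45 FPKM in the same order of groups. The groups overlapped because passage 10 was high in each, and at every passage the order was untreated, Rspo1-negative, Rspo1-positive (log2 fold change -1.80, SE 0.27, adjusted p = 0.00096, positive against untreated). Without the block that call was lost (adjusted p = 0.171). Ugt2a3, with 0.794 ± 0.418, 0.468 ± 0.0450 and 0.309 ± 0.0727 FPKM (SD, n = 3), missed the threshold (log2 -1.28, adjusted p = 0.0545, Rspo1-positive against untreated).

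The Ugt1a locus, represented by Ugt1a1, was listed at 168, 208 and 116 FPKM in untreated, 167, 127 and 113 in Rspo1-negative and 118, 97.2 and 85.2 in Rspo1-positive libraries. The groups overlapped, and the Rspo1-positive library was the lowest at each passage. The locus fell in Rspo1-positive against untreated cells (log2 fold change -0.70, SE 0.16, adjusted p = 0.0142), a call that was lost without the Rspo1-positive library of passage 5 or 6 (up to 0.127) and without the block (0.104). Rspo1-negative against untreated cells gave -0.30 (adjusted p = 0.171).

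Of the 8 tested sulfotransferases none rose in any comparison of groups. In Rspo1-positive against untreated cells 4 fell (50% passed, against 13.2% of all genes). In Rspo1-negative against untreated cells 3 fell (37.5%, against 35.5%), and between the gates 3 fell (37.5%, against 38.9%). The last 2 shares were near those of all genes. The shares of all genes that were lower were 6.77%, 20.0% and 17.4%. Sult1c2, which sulfonates small phenols (chr17:53829637-53846339), was listed at 53.9, 65.7 and 76.4 FPKM in untreated, 27.2, 22.3 and 23.7 in Rspo1-negative and 18.7, 10.2 and 18.5 in Rspo1-positive libraries. The 3 groups did not overlap. It fell 4.22-fold in Rspo1-positive (log2 fold change -2.08, SE 0.19, adjusted p = 3.98e-05) and 2.75-fold in Rspo1-negative cells (log2 fold change -1.46, SE 0.19, adjusted p = 0.000355). The difference between the gates (log2 fold change -0.62, SE 0.19, adjusted p = 0.0245) was lost without the Rspo1-positive library of passage 6 (0.127) or the Rspo1-negative libraries of passage 5 or 6.

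Sult1d1, which acts on dopamine and related amines, was listed at 75.6, 72 and 40.4 FPKM in untreated, 47.7, 19.1 and 15.6 in Rspo1-negative and 31.9, 10.1 and 16.9 in Rspo1-positive libraries. Untreated values exceeded all Rspo1-positive ones, while the Rspo1-negative library of passage 5 reached into the untreated range (log2 fold change -1.78, SE 0.28, adjusted p = 0.00149, positive; log2 fold change -1.39, SE 0.27, adjusted p = 0.00327, negative, each against untreated). The phenol sulfotransferase Sult1a1 differed by gate, with 148, 141 and 101 FPKM in untreated, 155, 112 and 110.3 in Rspo1-negative and 90.1, 67.8 and 67.6 in Rspo1-positive libraries, the last below all others (log2 fold change -0.79, SE 0.13, adjusted p = 0.002, against untreated; log2 fold change -0.70, SE 0.13, adjusted p = 0.00219, against Rspo1-negative). Sult1b1, the thyroid hormone sulfotransferase, fell in both groups at a low level (log2 -1.59 in Rspo1-positive and -1.06 in Rspo1-negative cells, mean count 27.3), and the cholesterol sulfotransferase Sult2b1 fell between the gates (-0.45, with an adjusted p of 0.335 under the GC and length offset). Sult4a1, the brain-type member, passed in no comparison of groups.

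Several of the members that fell are neighbours. A stretch of chromosome 5 from 86889767 to 87569027 holds the 9 Ugt2 genes, Sult1b1 and Sult1d1, and 6 of these 11 were tested. Of the 6, Ugt2b34, Ugt2b35, Ugt2b36, Sult1b1 and Sult1d1 fell in Rspo1-positive and in Rspo1-negative cells against untreated, and 1, Ugt2b35, fell between the gates (log2 -0.75). The 1 other gene tested in the stretch, Gm5869, did not pass in these comparisons. The stretch was singled out after its values were seen. Its genes are poor in GC, from 32.9% in Sult1d1 to 39.3% in Ugt2b35 among those that fell, against a median of 49.9% over tested genes. With the GC and length offset the falls in Rspo1-positive cells remained (-1.53 for Ugt2b34, -1.85 for Ugt2b35, -2.52 for Ugt2b36, -1.73 for Sult1d1). In Rspo1-negative cells the offset reduced them to -0.63 (adjusted p = 0.075) for Ugt2b34, -0.43 (0.225) for Ugt2b35, -0.55 (0.0932) for Sult1d1 and -0.42 (0.422) for Sult1b1, and Ugt2b36 kept its call (-1.40, 0.0053).

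Members also changed with passage in the same fit. From passage 5 to 10, 4 measurements rose and 8 fell, against 9.07% of all genes (4.57% higher, 4.50% lower). Markers moved over the same passages: of 5 tested hepatocyte markers Ttr (-0.99), Apoa1 (-1.69) and Apob (-1.76) fell and Fgb (3.95) rose, Cd68 fell (-1.39), Sox9 rose (0.93), and of 6 proliferation genes Mki67 rose (0.91). From passage 5 to 6 Mki67, Top2a and Ccnb1 rose (1.23, 1.03 and 1.36) and Cd68 fell (-1.24). Their part in the passage changes of the members was not tested. Ces1d (log2 -1.93, adjusted p = 0.00191), Aldh3a1, a corneal and stress-inducible aldehyde dehydrogenase (-1.70, 0.00295), and Aldh1a1 (-1.17, 0.00135) led the falls. Aldh1l2 (-1.14), Sult1d1 (-1.12), Gsta1 (-1.01), Sult4a1 (-0.96) and Aldh1a7 (-0.69) fell too. Ugt2b35 (1.36, 0.00985), Aldh5a1 (0.97, 0.00326), Aldh3b1 (0.75, 0.0139) and Sult2b1 (0.55, 0.0368) rose.

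Aldh3a1 shows the size of the passage differences: 3.23, 4.12 and 0.965 FPKM in untreated, 4.17, 2.35 and 1.05 in Rspo1-negative and 2.70, 3.41 and 1.0 in Rspo1-positive libraries of passages 5, 6 and 10. Its passage 10 libraries were close to 1 FPKM in all 3 groups, and it passed in no comparison of groups. From passage 5 to 6, 3 measurements fell and none rose (2.49% of all genes passed, 1.16% higher and 1.33% lower): Gsta1 (log2 -1.68, adjusted p = 0.00195), Aldh1a1 (-0.94, 0.00802) and the scarce Aldh3b2. Each passage was sampled once in each group, so the passage and any other difference between those samplings cannot be told apart. The count of 12 for passage 10 fell to 6 without the Rspo1-negative library of passage 5 and to 7 without the Rspo1-negative library of passage 10 or the Rspo1-positive library of passage 5.

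**Figure D5:**
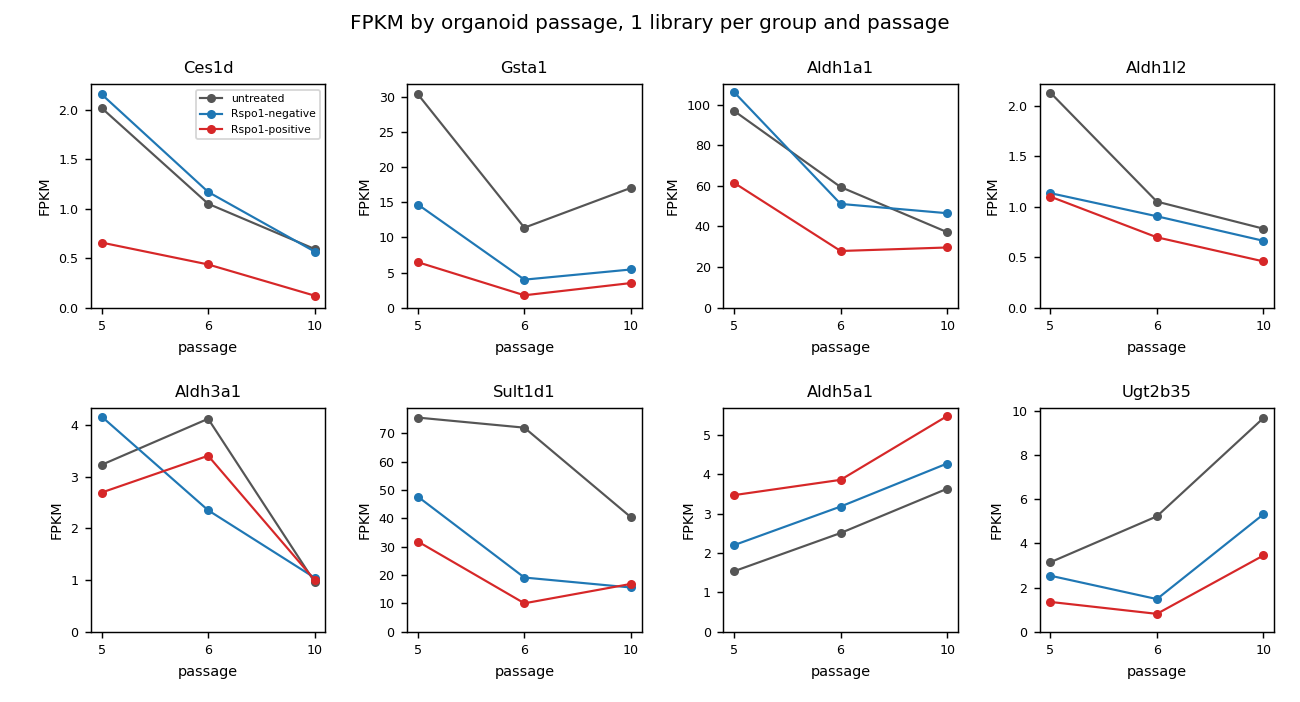
FPKM of 8 members that changed between passages 5 and 10, by passage, with 1 line per group and 1 library per point. Ces1d, Aldh1a1 and Aldh1l2 end lower and Aldh5a1 and Ugt2b35 end higher in each group, while the vertical order of the groups is mostly kept.

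The genes that supply the conjugation reactions were described from lists of related genes. Of 12 genes of glutathione supply, 2 fell and none rose in Rspo1-positive, and 3 fell and 2 rose in Rspo1-negative against untreated cells; between the gates 4 fell and 1 rose. These shares, 16.7%, 41.7% and 41.7%, were near those of all genes (13.2%, 35.5% and 38.9%). Gclc, the catalytic subunit of the rate-limiting enzyme of glutathione synthesis, stood at 168 ± 15.8 FPKM in untreated, 85.6 ± 3.00 in Rspo1-negative and 83.9 ± 6.90 in Rspo1-positive cells (SD, n = 3). It fell by 1.01 in both Rspo1 groups on the log2 scale (adjusted p = 0.000357 and 0.000333), and its regulatory partner Gclm passed in neither (-0.09 and -0.24). Under the GC and length offset the second value for Gclm turned to 0.47 and passed (adjusted p = 0.0268), and so did its difference between the gates (-0.63, 0.00736).

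Of 10 genes of glucuronate and sulfate supply, 3 fell and none rose in Rspo1-positive against untreated cells. They were Ugdh, which makes UDP-glucuronic acid (-0.60, adjusted p = 0.00455), Slc35d1, which carries it into the endoplasmic reticulum (-0.52, 0.0253), and Papss2, which makes the sulfate donor PAPS (-0.61, 0.0477). The same 3 fell in Rspo1-negative cells (-0.60, -0.84 and -0.74), with 4 lower and 1 higher in all. With the GC and length offset the value of Ugdh in Rspo1-negative cells turned to 0.11 (adjusted p = 0.554), and it fell between the gates (-0.77, 0.0021). Without the offset 1 fell and 1 rose between the gates. The shares that passed were 30%, 50% and 20%, against 13.2%, 35.5% and 38.9% of all genes.

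Of 15 NRF2 target or pathway genes outside the families, 2 fell and none rose in Rspo1-positive, and 5 rose and 1 fell in Rspo1-negative against untreated cells; 10 fell and none rose between the gates. With both directions together the first 2 shares, 13.3% and 40%, were near the 13.2% and 35.5% of all genes. The third was 66.7% against 38.9%. By direction, 0% were higher and 13.3% lower in Rspo1-positive cells, against 6.44% and 6.77% of all genes. In Rspo1-negative cells 33.3% were higher and 6.67% lower, against 15.5% and 20.0%. Cbr3, a carbonyl reductase, stood at 43.9 ± 16.2 FPKM in untreated, 46.9 ± 3.79 in Rspo1-negative and 17.5 ± 1.08 in Rspo1-positive cells (log2 -1.39, adjusted p = 0.000438, positive against negative). The classical target Nqo1 was at most 0.469 FPKM in any library, and Nfe2l2, which encodes NRF2, did not pass (-0.01 and -0.25 against untreated).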

How the data were processed

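Raw counts and FPKM per gene were deposited by the authors in 1 file per library, and reads had been processed with Trimmomatic 0.35, FastQC 0.11.2, STAR 2.5.1b and featureCounts on GRCm38, per the submitters' processing notes; the strand and multi-mapping settings are not given in the sources used here. The authors' deposited comparison tables hold log2 fold changes and adjusted p-values. Counts were tested in R 4.3.3 with edgeR 4.0.16 (filterByExpr, minimum count 10 and minimum total 15; TMM; quasi-likelihood F-test, passage and group, all 9 libraries, 4 residual degrees of freedom). DESeq2 1.42.0 was an alternative. The edgeR code was also run on counts simulated from the fit's own estimates of spread. That run cannot show how the test behaves where real counts depart from the model. SE is the size of the log2 fold change divided by the square root of F. FPKM served as levels only. Same-passage libraries deviated together (correlation 0.123 to 0.573 in 9 pairs; -0.476 to 0.0826 in 18 pairs of different passages), and the labels state the passages, so passage was a block. The 5 highest members per family, those that passed with a mean count of at least 30, and near-identical paralogs are named; Ces2b, Sult1b1 and Aldh3b2 fall outside this rule and were added after their values were seen. The members, gene lists and motifs were chosen with earlier results of these data known. GC and length came from the longest GENCODE M21 transcript (99.9% of genes). Other lists tested by counts were glutathione supply, NRF2 targets, glucuronidation and sulfation supply, other conjugation enzymes, xenobiotic receptors and retinoid handling (83 genes listed). A further cholangiocyte marker is not reported here.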

Additional observations from a re-analysis of the deposited data

How the results depend on the processing

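The counts of members that passed are given for the comparisons in the order Rspo1-positive against untreated, Rspo1-negative against untreated, and Rspo1-positive against Rspo1-negative (25, 19 and 26). Without the replicate block for passage they were 9, 8 and 12, and the counts over all genes 886, 3724 and 4141 instead of 2247, 6039 and 6624. The GC and length offset gave 12 members in the second comparison, and 3543 and 4007 genes in the second and the third; in the last it lowered the share of genes called higher (1639 of 4007 instead of 3660 of 6624). Leaving out 1 library of the groups or passages compared gave 15 to 22, 12 to 24 and 11 to 28 members, and 6 to 8 for passage 10 against 5. The counts over all genes were then 1112 to 2178, 3229 to 7427, 3674 to 7029 and 405 to 702. Leaving out a passage was added after seeing the data. Without passage 5 the members were 16, 10 and 4 and the genes 931, 2002 and 1819. Without passage 6 the members were 25, 28 and 32 and the genes 2142, 8042 and 8006. Without passage 10 the members were 19, 10 and 17 and the genes 1409, 2546 and 3313. Without the low-count filter passage 10 against 5 gave 2784 genes instead of 1543. Of 1094 refits of the 86 named calls (Ugt1a genes counted singly), 865 kept the call, 229 lost it and none reversed. DESeq2's Wald test lost the calls of Sult1b1 in the second comparison (adjusted p = 0.0765) and Aldh3b2 in the third (0.0784), and its size factors lost none of the member calls. No scaling moved the median of all genes by 0.1. Depth limits the 16 untested members, whose means were at most 16.2 counts.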

Other observations

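Receptors that regulate these enzymes, retinoid genes and enzymes outside the 5 families were described from lists. Of 13 genes of xenobiotic sensing, 6 fell and 2 rose in Rspo1-positive against untreated cells, 5 fell and 3 rose in Rspo1-negative against untreated cells, and 3 fell and 3 rose between the gates. The shares that passed were 61.5%, 61.5% and 46.2%, against 13.2%, 35.5% and 38.9% of all genes. The bile acid receptor Nr1h4 (FXR) fell in both Rspo1 groups (log2 -1.06, adjusted p = 0.000619, and -0.87, 0.00135), as did Ppara (-1.72 and -1.13), the receptor for fatty acids, at under 1 FPKM. Nr1i2, the pregnane X receptor, fell in Rspo1-positive cells (-1.12, 0.0329). The aryl hydrocarbon receptor gene Ahr rose in Rspo1-positive cells (0.70, 0.00806). Its target Cyp1b1 rose from 0.663 ± 0.593 FPKM in untreated to 2.35 ± 0.982 in Rspo1-negative and 5.15 ± 1.63 in Rspo1-positive cells (SD, n = 3; log2 1.97 and 3.19). Cyp1a1, another target, passed in neither (0.16 and 0.07).

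Of 13 tested retinoid genes beside the retinaldehyde dehydrogenases, 3 fell and 1 rose in Rspo1-positive, and 3 fell and 2 rose in Rspo1-negative against untreated cells, and 3 fell and 1 rose between the gates (30.8%, 38.5% and 30.8%, against 13.2%, 35.5% and 38.9% of all genes). Stra6, the membrane receptor that takes up retinol, rose from 7.19 ± 4.09 to 32 ± 3.62 FPKM in Rspo1-negative and 40.4 ± 11.6 in Rspo1-positive cells (log2 2.24, adjusted p = 0.000112, and 2.57, 1.34e-05). Dhrs9, a retinol dehydrogenase, fell in both (-2.27 and -2.07), and Dhrs3, which reduces retinaldehyde back to retinol, fell in Rspo1-positive cells (-0.80, adjusted p = 0.00847). Among 11 tested conjugation and hydrolysis enzymes outside the families, 2 fell and none rose in Rspo1-positive against untreated cells, the microsomal Mgst3 (-1.21, 0.000578) and the soluble epoxide hydrolase Ephx2 (-0.96, 0.000974). In Rspo1-negative cells 2 fell and 1 rose, and between the gates 3 fell and 2 rose. These shares were 18.2%, 27.3% and 45.5%, against the same background.

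The authors' deposited tables listed 58 members, with the 9 Ugt1a genes as separate rows. At the same threshold of 0.05 on the adjusted p, 2 were higher and 31 lower in Rspo1-positive against untreated cells. In Rspo1-negative against untreated cells 6 were higher and 9 lower, and between the gates 1 was higher and 37 lower. All 9 Ugt1a genes were among the 31 and among the 37, whereas in the edgeR fit the Ugt1a locus did not pass between the gates. The share of all genes that passed in the authors' comparisons was not computed.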
